A study of Arabidopsis thaliana with 3 samples.

Results

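Plants that had been frozen were compared late and early in recovery, with 1 array after 24 h and 1 array after 3 h at 20 °C in darkness. These are 2 of the 3 arrays of the series, chosen by their titles, and each reads 22746 Arabidopsis probe sets. The material was the whole aerial part of Arabidopsis thaliana Col-0 at growth stage 1.14, raised at 20 °C under 9 h light and 15 h dark and cold-acclimated for 11 days at 4 °C. Both groups were then frozen for 20 h at 6.0 °C as printed in the labels, which show no sign for it. The third array, from cold-acclimated plants that were not frozen, was taken at hour 5 of the light period. Its signals are given here only as side values, but they also entered the signal floor and the median used in naming genes. No mutant, transgene or chemical treatment was named for any array.

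Leaves kept in the dark run out of sugar, the energy-sensing kinase SnRK1 becomes active, and the cell turns to its own proteins and lipids for fuel. Autophagy carries cytoplasm to the vacuole in vesicles coated with ATG8 proteins, and mitochondria oxidize branched-chain amino acids and lysine through a short electron-transfer chain of their own. Thawing also brings wounding, calcium signals and a demand for protein folding, and the cold regulon built up during acclimation fades again in the warm. The hours were counted with freezing begun at the end of the last light period and held in darkness. On that count the 24 h array was taken 44 h and the 3 h array 23 h after the last light. These times fell at hours 5 and 8 of the 24 h cycle. Recovery time, length of darkness and hour of the cycle cannot be told apart in this comparison.

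A signal is the MAS5 intensity of a probe set after both arrays were scaled to a trimmed mean of 100. Signals below 16.1, the 30th percentile over the Arabidopsis probe sets of all 3 arrays, were set to that floor. A probe set was measured if it lay above the floor on either of the 2 compared arrays. At or above the floor lay 70.5% of probe sets at 24 h and 69.6% at 3 h, and the median signal was 42.8 at 24 h and 39.5 at 3 h. With 1 array per group nothing was tested, and each ratio describes 2 arrays. The only error the arrays offer comes from pairs of probe sets for one gene. Their disagreement over 80 genes gave an SD of 0.34 log2 units for a single probe set, which leaves out the spread between plants. Control transcripts gave 3′ to 5′ ratios of 1.66 at 24 h and 1.601 at 3 h for GAPDH, 7.65 at 24 h and 9.78 at 3 h for actin, and 1.75 at 24 h and 1.37 at 3 h for ubiquitin. The part of RNA quality in the results was not tested. Leaf transcripts were abundant on both arrays, as in Rubisco activase RCA (4068 at 24 h and 2990.1 at 3 h). The root marker EXPA7 was at 8.38 at 24 h and 22.5 at 3 h, near the floor. Both measured guard cell markers, FMA and AT1G22690, had log2 ratios of 0.14 and 0.02. The 1 measured phloem and xylem marker, AT5G18600, was higher late, at 1069 at 24 h and 342 at 3 h (log2 ratio 1.64). Neither epidermis nor meristem markers had a measured member.

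Of 16968 measured probe sets, 1813 (10.7%) had signals 2-fold or more higher at 24 h, and 1471 (8.67%) had signals 2-fold or more lower. Past 4-fold lay 366 higher (2.16%) and 308 lower (1.82%) probe sets. With 1 probe set for each gene of the annotation, 10.2% of 9340 genes were 2-fold or more higher and 8.18% lower, with a median log2 ratio of 0.08. These shares are the background for every gene list below. The higher side held 55.2% of the 2-fold differences as scaled here and 72.4% when the arrays were scaled to the bacterial hybridization controls. It held 46.1% with a common median, 47.2% with scaling to reference genes, 48.9% after loess correction and 49.6% after quantile normalization. Which side was larger thus depended on the scaling. The hybridization controls moved the median log2 ratio of all measured probe sets by 0.22, and a common median moved that ratio by -0.11. Directions below that rest on small ratios are read against these shifts. The 8 measured reference genes, chosen elsewhere for stable expression, all lay within 2-fold, with ratios between -0.27 and 0.29.

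**Figure D1:**
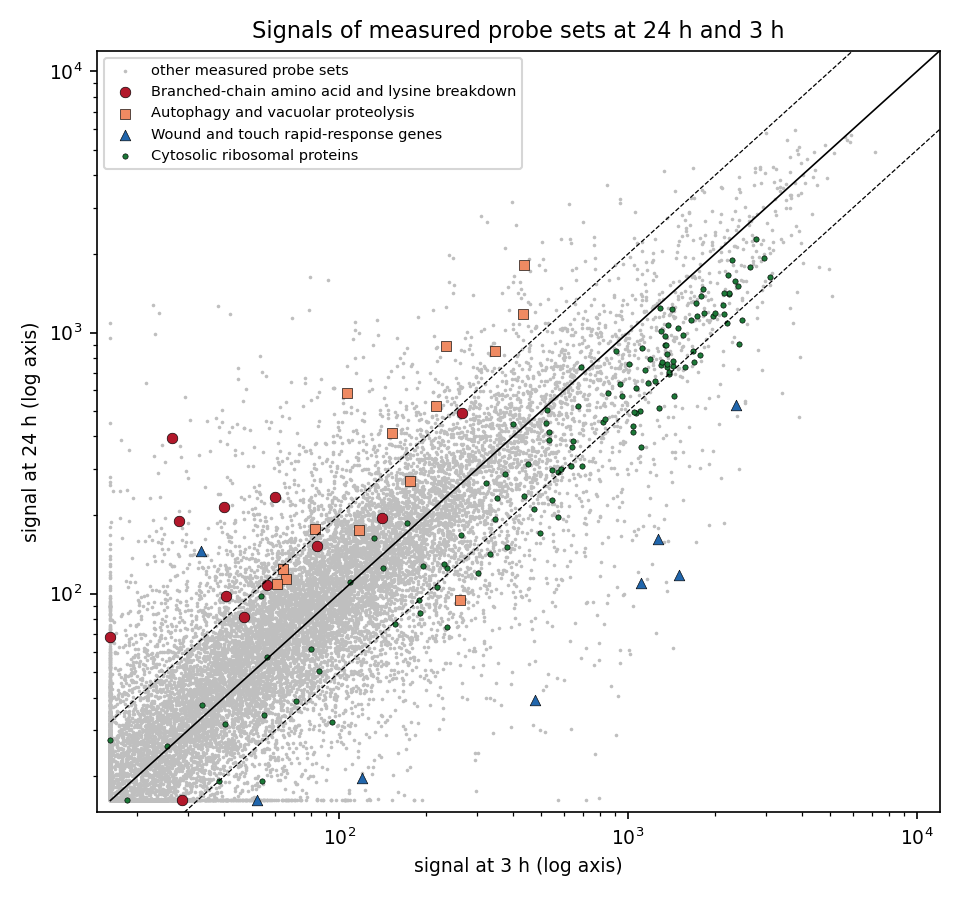
Signal of each measured probe set at 24 h (vertical, log axis) against 3 h (horizontal, log axis), with signals below the floor drawn at 16.1. The solid line marks equal signals and the dashed lines 2-fold differences. Most amino acid breakdown and autophagy genes lie above the solid line, and most wound-response genes and ribosomal proteins lie below it.

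Genes of darkness and starvation had higher signals late in recovery. Of 8 measured members of this list, 7 were 2-fold or more higher and 1 lower at 24 h, with a median log2 ratio of 2.95. AT2G20670 was at 956 at 24 h and 4.38 at 3 h, below the floor, so it was at least 59.2-fold higher. AT4G27450 and AT3G15450, from the family of aluminium-induced proteins with YGL and LRDR motifs, are known as markers of low sugar. AT4G27450 was at 1173 at 24 h and 42.0 at 3 h, a log2 ratio of 4.81. AT3G15450 was at 2214 at 24 h and 503 at 3 h. Of the 5 measured genes of that family 3 were 2-fold or more higher, AILP1 with 1819.8 at 24 h and 898 at 3 h, while AT3G22850 stood level at 202 at 24 h and 200.2 at 3 h.

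AKINBETA1, a regulatory subunit of SnRK1, was at 431 at 24 h and 57.2 at 3 h (log2 ratio 2.92). The other measured subunits, AT4G16360 and AT2G28060, had ratios of 0.12 and 0.33, so the difference within the complex lay in 1 of 3 subunits. ATL8, a RING-H2 ubiquitin ligase, was at 159 at 24 h and 20.2 at 3 h. The glycine-rich protein gene AT2G05540 was at 813 at 24 h and 53.0 at 3 h. AT1G54740 was at 161 at 24 h and 24.4 at 3 h, and the dormancy-associated gene AT1G56220, from a separate list, at 1216 at 24 h and 211 at 3 h. The member that went the other way was AT5G66650, of the mitochondrial calcium uniporter family, at 31.4 at 24 h and 99.0 at 3 h. The cold-acclimated array had 32.7 for AT4G27450, 54.9 for AKINBETA1 and 67.0 for ATL8.

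Genes for amino acid breakdown in mitochondria had higher signals at 24 h at several steps. Of 12 measured genes for branched-chain amino acid and lysine breakdown, 6 were 2-fold or more higher and 0 lower, with a median log2 ratio of 1.10. With scaling to the hybridization controls 10 were higher. The largest ratio was that of AT4G33150, the bifunctional enzyme that opens lysine breakdown, with 394 at 24 h and 26.4 at 3 h (3.90). In leucine breakdown, isovaleryl-CoA dehydrogenase IVD was at 214 at 24 h and 39.9 at 3 h, and the methylcrotonyl-CoA carboxylase subunits followed it. MCCA was at 189 at 24 h and 28.0 at 3 h, and MCCB at 234 at 24 h and 60.1 at 3 h. A later enzyme of the path, the hydroxymethylglutaryl-CoA lyase AT2G26800, was at 153 at 24 h and 83.7 at 3 h, short of 2-fold.

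In valine breakdown AT4G20930, 3-hydroxyisobutyrate dehydrogenase, was at 68.2 at 24 h and 6.31 at 3 h, at least 4.22-fold higher. The following enzyme, ALDH6B2, was at 493 at 24 h and 265 at 3 h. D2HGDH, a further dehydrogenase of the list, was at 98.0 at 24 h and 40.6 at 3 h. The route by which some dehydrogenases of the list pass electrons to ubiquinone includes the flavoprotein subunits ETFALPHA and ETFBETA and the oxidoreductase ETFQO. ETFALPHA, ETFQO and ETFBETA lay within 2-fold, with ratios of 0.93, 0.80 and 0.48. AT5G09300, a subunit of the branched-chain keto acid dehydrogenase, was low on both arrays, at 6.72 at 24 h and 28.6 at 3 h. None of the 4 measured genes for proline, glutamate and nitrogen remobilization passed 2-fold, and their median ratio was 0.16.

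Many autophagy genes were higher at 24 h. Of 14 measured genes for autophagy and vacuolar proteolysis, 8 were 2-fold or more higher and 1 lower, with a median of 1.19. All 11 measured genes that carry an ATG or APG name, most of them ATG8 paralogs that probes may share, had ratios above 0, and 6 of them passed 2-fold. ATG8E was at 589 at 24 h and 107 at 3 h (2.47), and ATG8F, the brightest, at 1816 at 24 h and 436 at 3 h. Lower in the order came ATG8C with 413 at 24 h and 153 at 3 h, APG8H with 854 at 24 h and 346 at 3 h and APG8A with 525 at 24 h and 217 at 3 h. At the low end ATG3, the enzyme that attaches lipid to ATG8, was at 176 at 24 h and 117 at 3 h, and ATG8D at 269 at 24 h and 176 at 3 h.

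Vacuolar proteases differed among themselves. GAMMA-VPE, a processing protease of leaf vacuoles, was at 1179 at 24 h and 432 at 3 h, whereas its relative BETA-VPE was at 94.5 at 24 h and 262 at 3 h. The cathepsin B-like protease AT1G02305 was at 886 at 24 h and 235.3 at 3 h, and AT2G21430, a papain-type protease, at 109 at 24 h and 60.8 at 3 h. Other routes of protein disposal showed little difference: 0 of 5 proteasome genes, 0 of 12 ubiquitin-conjugating enzymes and 0 of 13 vacuolar sorting VPS genes passed 2-fold, with medians of 0.00, 0.17 and 0.05. Scaling to the hybridization controls put 2 of the ubiquitin-conjugating enzymes and 1 of the VPS genes 2-fold or more higher. RPN12a, a proteasome lid subunit, was at 600.0 at 24 h and 599 at 3 h.

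**Figure D2:**
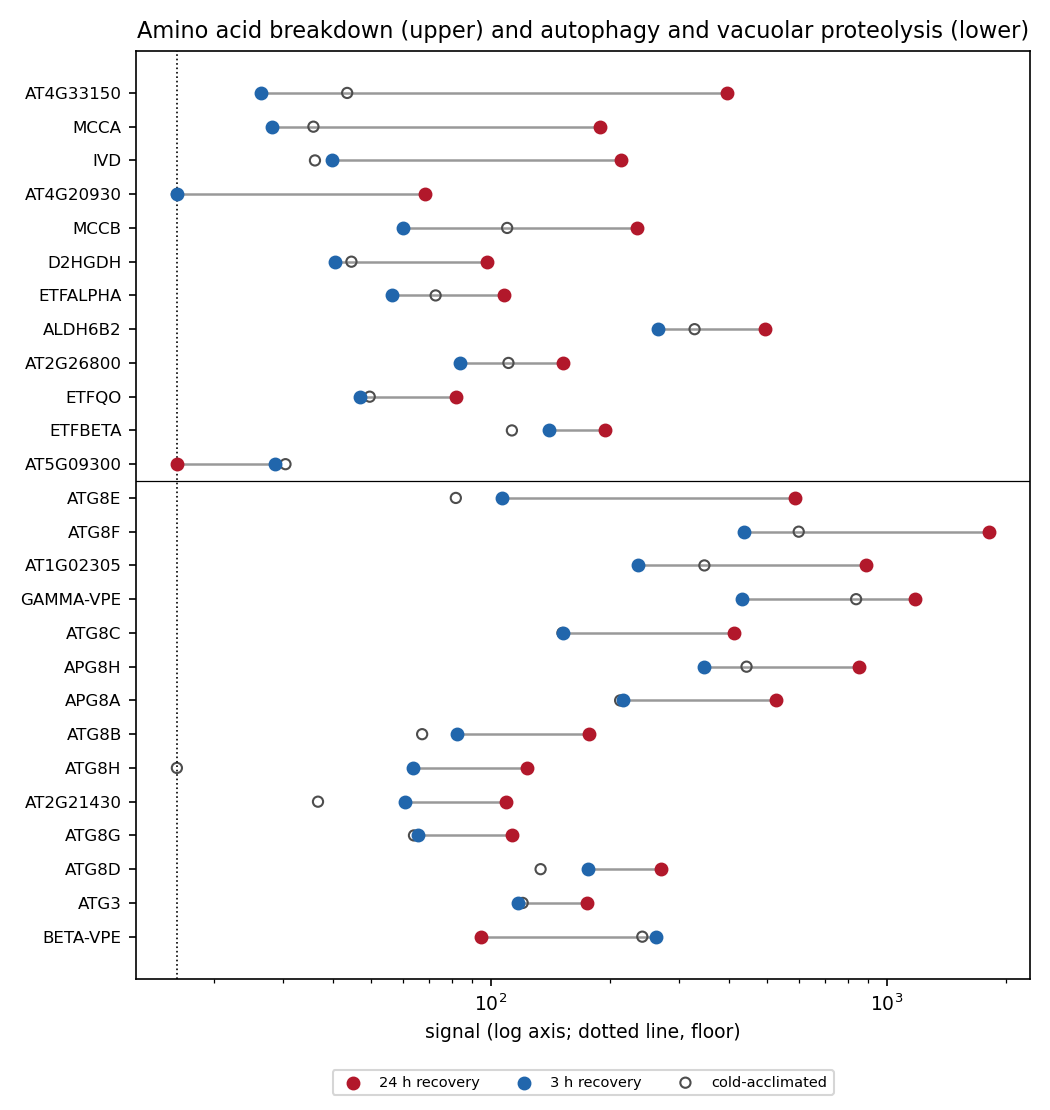
Signals (log axis) of the 12 amino acid breakdown genes and the 14 autophagy and vacuolar proteolysis genes, with 24 h in red, 3 h in blue and the cold-acclimated array as open circles; 1 array each, drawn at the floor (dotted) where lower. The red point lies right of the blue one in 11 of the 12 breakdown genes and 13 of the 14 autophagy and protease genes.

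Genes for lipid and carbohydrate use were few on the annotation. SDP1, the lipase that opens oil bodies, was at 178 at 24 h and 79.2 at 3 h, and AIM1, a multifunctional protein of peroxisomal beta-oxidation, at 600.2 at 24 h and 240.3 at 3 h; these were the only 2 measured members of their list. The alpha-amylase AMY1 was at 126 at 24 h and 33.7 at 3 h, while the plastid enzymes of starch breakdown PWD and DPE1 had ratios of -0.62 and 0.40. Of 3 measured starch synthesis genes 1 was 2-fold or more lower and 0 higher. It was APL3, a large subunit of the enzyme that commits glucose to starch, at 58.6 at 24 h and 164 at 3 h, while APL4 and SBE2.2 had ratios of -0.48 and 0.16. Of 4 genes of sucrose synthesis and breakdown 1 was lower and 1 higher. The sucrose-phosphate synthase ATSPS4F was at 23.7 at 24 h and 139 at 3 h, AT1G62660 at 71.1 at 24 h and 26.1 at 3 h, and AT1G66430 and AT2G35840 had ratios of -0.56 and -0.19. Of 13 measured SWEET and sugar transporter genes 1 was 2-fold or more higher, SAG29, a senescence-associated SWEET, at 82.9 at 24 h and 6.91 at 3 h, at least 5.14-fold. SWEET2, a vacuolar carrier, was at 101 at 24 h and 213 at 3 h and was lower, as was the sucrose exporter SWEET13, at 49.9 at 24 h and 219 at 3 h. Only 1 of them passed 2-fold with scaling to the hybridization controls or with a pseudocount.

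Early recovery stood out for genes that plants switch on within minutes of wounding or touch. Of 8 measured members of that list, 7 were 2-fold or more lower at 24 h and 1 higher, with a median log2 ratio of -2.79. The calcium sensors CML38 and CML37 were at 117 at 24 h and 1507 at 3 h and at 39.1 at 24 h and 477 at 3 h. STZ, a zinc-finger repressor of stress responses, was at 162 at 24 h and 1273 at 3 h. The ubiquitin ligases PUB23 and PUB22, which restrain immune signalling, were at 19.8 at 24 h and 120.4 at 3 h and, below the floor late, at 15.5 at 24 h and 52.1 at 3 h. AT1G15010 kept a clear late signal, at 528 at 24 h and 2372 at 3 h beside 39.5 on the cold-acclimated array. The exception CML41, a calmodulin-like protein of plasmodesmata, was at 146 at 24 h and 33.1 at 3 h.

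The wider families shared this pattern only in part. Of 27 measured calmodulin-like genes 7 were lower and 3 higher, with a median of -0.04. AT3G01830 was at 113 at 24 h and 1167 at 3 h and AT1G18210 at 409 at 24 h and 1454 at 3 h, but CML30 was at 92.8 at 24 h and 28.2 at 3 h. Of 7 measured U-box ligases 3 were lower, the third being PUB19, which acts in abscisic acid and drought responses, at 98.7 at 24 h and 964 at 3 h. The other 4, PUB49, PUB43, PUB24 and PUB25, had ratios between -0.12 and 0.33. Of 10 measured VQ motif proteins, partners of WRKY factors, AT2G22880 (44.5 at 24 h and 518 at 3 h) and AT3G56880 (303 at 24 h and 893 at 3 h) were lower and the rest lay within 2-fold. Among 7 NDR1/HIN1-like proteins of the plasma membrane 4 were lower and 1 higher, with a median of -1.20, or 2 lower with scaling to the hybridization controls. AT2G27080 led them, with 110.2 at 24 h and 1107 at 3 h.

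Transcription factors of the AP2/ERF family held more lower than higher members at 24 h. Of 18 measured by locus 6 were lower (33.3%, against 8.18% of all genes) and 2 higher (11.1%, near the 10.2% of all genes). The median was -0.15, and 3 were lower with both arrays above the floor. ORA47, a regulator of jasmonate synthesis, was at 47.0 at 24 h and 111 at 3 h, and AT1G64380 at 79.3 at 24 h and 269 at 3 h. AT5G52020 and AT1G33760 lay below the floor at 24 h, at 14.6 at 24 h and 104.5 at 3 h and at 1.01 at 24 h and 52.4 at 3 h. On the late side AT5G61590, known to repress cuticular wax genes in the dark, was at 706 at 24 h and 53.9 at 3 h (3.71), beside 332 on the cold-acclimated array. AT5G07580 was at 102 at 24 h and 35.02 at 3 h. WRKY factors had 1 of 6 passing 2-fold, WRKY47 at 113 at 24 h and 55.0 at 3 h. With scaling to a common median or to reference genes, quantile normalization or loess correction, 0 were higher and 1 was lower.

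Jasmonate genes were mostly lower late. Of 6 measured, 4 were 2-fold or more lower and 1 higher at 24 h, with a median of -1.62. OPCL1, a ligase of jasmonate synthesis, was at 151 at 24 h and 554 at 3 h. The defensins PDF1.2 and PDF1.2b, jasmonate and ethylene markers whose near-identical sequences the probes may share, were at 803 at 24 h and 3934 at 3 h and at 1089 at 24 h and 3729 at 3 h. Of 3 oxygenases that inactivate jasmonic acid, AT5G05600 was lower with 408 at 24 h and 1121 at 3 h and AT2G38240 stood at 886 at 24 h and 1554 at 3 h. The third, JRG21, was higher with 417 at 24 h and 202 at 3 h, a ratio of 1.05 that fell under 2-fold with scaling to a common median. All of these oxygenases were low on the cold-acclimated array, at 47.1, 126 and, below the floor, 15.5.

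Defensins did not behave as a block. PDF1.4 had the largest ratio among genes with an unambiguous probe set above the floor on both arrays, at 989 at 24 h and 23.1 at 3 h (5.42), the reverse of PDF1.2. LCR67, below the floor at 3 h, was at 88.9 at 24 h and 10.8 at 3 h, at least 5.50-fold higher, whereas PDF2.1 was at 12.7 at 24 h and 93.5 at 3 h, at least 5.79-fold lower. LCR68 and LCR69, the other measured family members, lay within 2-fold. Among immune genes with other roles, SAG101, a lipase-like partner of immune receptors, was at 63.7 at 24 h and 167 at 3 h, and PYK10, a beta-glucosidase of endoplasmic reticulum bodies, at 106 at 24 h and 18.6 at 3 h.

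Genes for protein folding in the endoplasmic reticulum had lower signals at 24 h. Of 7 measured genes 5 were 2-fold or more lower and 0 higher, with a median of -1.06. The membrane-tethered factors that start the unfolded protein response led them, BZIP60 with 378 at 24 h and 1228 at 3 h and BZIP28 with 162 at 24 h and 441 at 3 h. BZIP17, their relative in salt stress, was at 69.8 at 24 h and 146 at 3 h, while S1P, a protease that releases such factors in the Golgi, was at 108 at 24 h and 62.6 at 3 h. The chaperone partners ATERDJ3B, CRT1b and Hop2 were lower with ratios of -1.09, -1.06 and -1.02, close enough to the threshold that only 2 of the 7 genes passed it with scaling to the hybridization controls. ATERDJ2B stood level, at 118 at 24 h and 106 at 3 h. In the cytosol the HSC70 chaperone AT3G09440 was at 538 at 24 h and 2549 at 3 h, and Hsp70-2 at 267 at 24 h and 531 at 3 h. The other 3 measured heat shock genes, among them AT5G37670, lay within 2-fold, with signals of at most 35.7 at 24 h and 20.0 at 3 h.

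The cold regulon was lower late in each measured member. All 6 were 2-fold or more lower at 24 h, with a median of -1.46. Quantile normalization, loess correction or scaling to the hybridization controls each left 5 past 2-fold. The chloroplast protectants COR15B and COR15A were at 545 at 24 h and 2537 at 3 h and at 1779.5 at 24 h and 4580.3 at 3 h. Among dehydrins, LTI30 was at 1758 at 24 h and 4961 at 3 h and COR47 at 1426 at 24 h and 3852 at 3 h. AT1G16850 had the largest ratio, -2.41, with 267 at 24 h and 1416 at 3 h, and AT4G30650, a small membrane protein, the least, with 1519 at 24 h and 3112 at 3 h. Signals stayed high even so, since COR15A, COR47, LTI30 and AT4G30650 each kept at least 1426 at 24 h. The cold-acclimated array had 2369 for COR15B, 3968 for COR15A, 2845 for LTI30, 1288 for COR47, 438 for AT1G16850 and 2670 for AT4G30650. Each of these lay below the 3 h signal, and only that of COR47 lay below the 24 h signal. The dehydrin-like protein AT1G54410, outside the regulon, was at 3432 at 24 h and 3973 at 3 h.

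**Figure D3:**
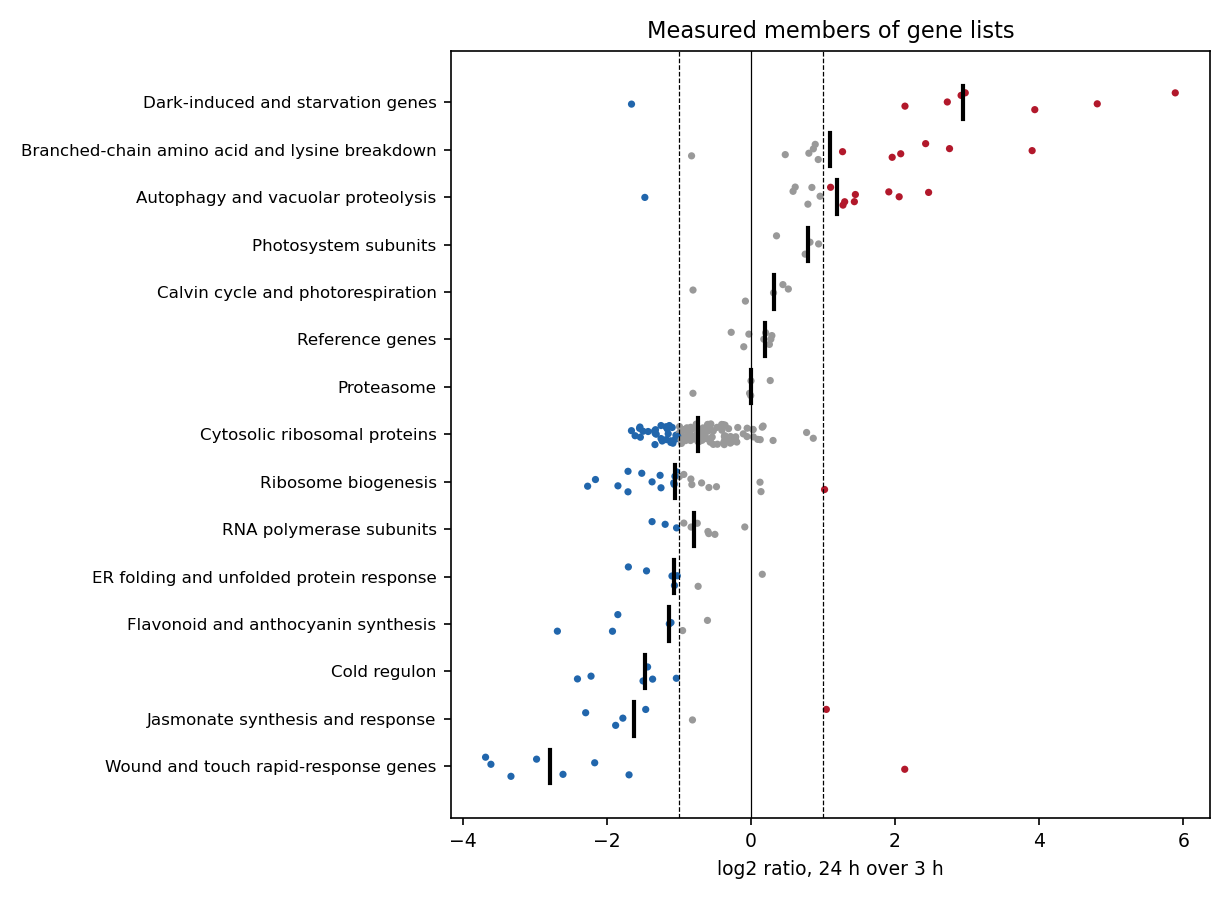
The log2 ratio of 24 h over 3 h for each measured member of 15 gene lists, with red points 2-fold or more higher, blue points 2-fold or more lower, a black bar at each median and dashed lines at 2-fold; 1 array per time. The medians run between 2.95 for dark-induced and starvation genes and -2.79 for wound and touch genes.

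The machinery of translation was lower at 24 h by a small amount in many genes. Of 121 measured cytosolic ribosomal proteins 111 had ratios below 0, and 30 were 2-fold or more lower and 0 higher, with a median log2 ratio of -0.74, against 0.08 over all genes. Their median signal was 516 at 24 h and 1005 at 3 h. AT3G06700 was at 365 at 24 h and 1112 at 3 h and AT3G04840 at 903 at 24 h and 2426 at 3 h, while AT3G14600 stood at 735 at 24 h and 688 at 3 h. The count of ribosomal proteins past 2-fold depended on the scaling and lay between 14 with the hybridization controls and 41 with a common median, but the median stayed below 0 under each alternative, between -0.50 and -0.85.

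Genes that assemble ribosomes in the nucleolus went further. Of 23 measured ribosome biogenesis genes 13 were 2-fold or more lower and 1 higher, with a median of -1.05. The lower count was 8 with a pseudocount (median -0.94) and 9 with the hybridization controls (median -0.79). AT1G52930, a Brix-domain protein of the large subunit, was at 60.4 at 24 h and 290.1 at 3 h, and AT3G05060, a NOP58-type core protein of small nucleolar particles, at 79.3 at 24 h and 285 at 3 h. AT3G57940 was at 17.2 at 24 h and 76.9 at 3 h. The exception, AT5G61330, was at 51.9 at 24 h and 25.6 at 3 h and no longer passed 2-fold with scaling to a common median. Of 10 RNA polymerase subunits all had ratios below 0 and 3 were lower by 2-fold, or 1 with the hybridization controls, among them NRPA2 of polymerase I, which transcribes ribosomal RNA, at 60.3 at 24 h and 123 at 3 h. On the same arrays the 25S ribosomal RNA control was higher, at 1292 at 24 h and 444 at 3 h, and the 5S control lower, at 7.98 at 24 h and 65.1 at 3 h. The part of ribosomal RNA carried into the labelled material was not tested.

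**Figure D4:**
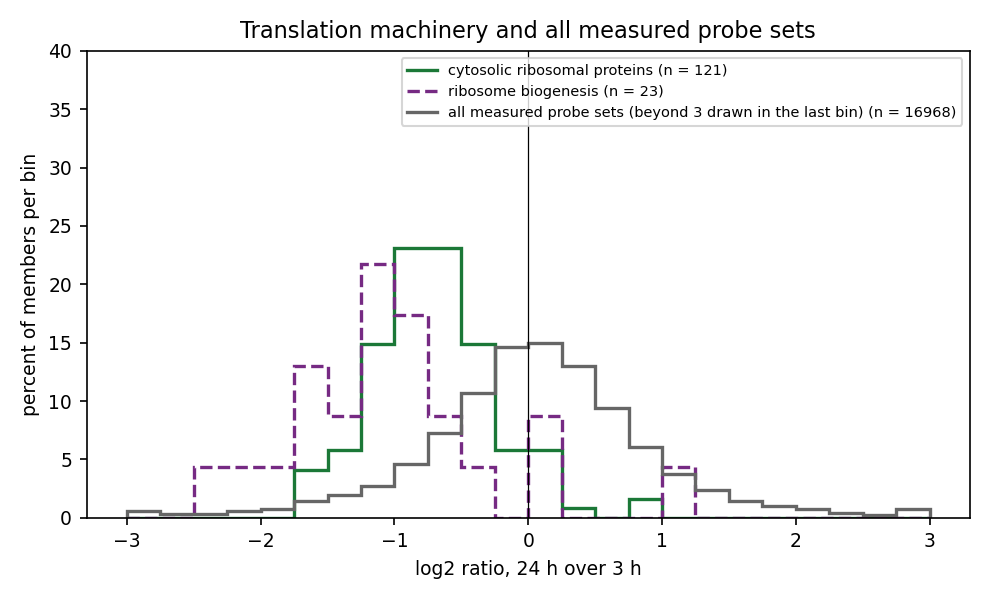
Share of genes (percent per bin of 0.25) by log2 ratio of 24 h over 3 h for 121 cytosolic ribosomal proteins, 23 ribosome biogenesis genes and all 16968 measured probe sets. The ribosomal and biogenesis curves peak left of 0, where the curve of all probe sets peaks near 0.

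Genes of growth differed in both directions. Of 7 measured genes matched to histones by symbol, 2 were 2-fold or more lower and 0 higher. That match missed the histone HIS1-3 and took in AT-HF, an enzyme of histidine synthesis, with a ratio of -0.59. Of 4 genes of DNA replication and cell division 2 were lower and 0 higher, and of 5 growth hormone genes 2 were higher and 0 lower. A pseudocount, a 45th percentile floor or hybridization control scaling each left 1 replication gene lower. The histones HTB2 and HTB1, needed when DNA is copied, were at 70.8 at 24 h and 184 at 3 h and at 69.7 at 24 h and 169 at 3 h, and PRL, a helicase subunit of replication, at 30.1 at 24 h and 63.9 at 3 h. The Aurora kinases AUR1 and AUR2 of cell division lay within 2-fold. HIS1-3, a linker histone induced by drought and not among those 7 genes, was higher, at 249 at 24 h and 18.4 at 3 h. Of 7 tubulins 1 was higher, TUB6, at 383 at 24 h and 162 at 3 h. RR16, a cytokinin response regulator, was at 208 at 24 h and 28.0 at 3 h, and WES1, which conjugates auxin to amino acids, at 142 at 24 h and 31.5 at 3 h. In bulk aerial tissue, fewer cells of a type and less RNA per cell cannot be told apart.

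Cell wall genes differed by member in both directions. Of 15 measured expansins 3 were higher and 2 lower, or 1 each with a floor at the 45th percentile, and of 7 xyloglucan enzymes 3 were higher and 1 lower. EXPA8, which loosens walls, was at 280.4 at 24 h and 2.45 at 3 h, at least 17.37-fold higher. EXLA1, an expansin-like protein, was at 350.1 at 24 h and 1549.5 at 3 h, and EXLA3 at 6.997 at 24 h and 54.4 at 3 h. XTH18 was early, at 15.7 at 24 h and 193 at 3 h, at least 11.97-fold lower, whereas XTH16 was at 152 at 24 h and 43.6 at 3 h, XTH33 at 80.0 at 24 h and 20.5 at 3 h and EXGT-A3 at 736 at 24 h and 289.8 at 3 h. Of 17 trichome birefringence-like proteins, which acetylate wall polymers, 4 were higher and 1 lower, TBL37 with 303 at 24 h and 98.4 at 3 h and TBL26 with 44.7 at 24 h and 125 at 3 h.

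Flavonoid synthesis genes had lower signals at 24 h. Of 7 measured genes 5 were 2-fold or more lower and 0 higher, with a median of -1.13. Hybridization control scaling (median -0.89), a 45th percentile floor or requiring both arrays above the floor each left 3 lower. CHIL, a chalcone isomerase-like protein that aids the pathway's first enzyme, was at 4.09 at 24 h and 103.8 at 3 h, at least 6.43-fold lower. DFR, the reductase toward anthocyanin, was at 24.2 at 24 h and 91.4 at 3 h, and the glucosyltransferase UGT78D2 at 27.3 at 24 h and 98.2 at 3 h. AT4G14090 was at 2.986 at 24 h and 34.8 at 3 h, below the floor late. AT1G06000, a rhamnosyltransferase of flavonols outside the list, was at 0.97 at 24 h and 128 at 3 h. Beside these, HYH, a light-dependent activator of the pathway, was at 23.5 at 24 h and 77.7 at 3 h, and AT1G23390, a Kelch F-box protein that marks chalcone synthase for destruction, was at 1098 at 24 h and 114 at 3 h.

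Most photosynthesis genes of the nucleus lay within 2-fold, but antenna genes passed it on both sides. Among 3 measured antenna proteins, LHCB4.2 was higher with 4152 at 24 h and 1330.3 at 3 h, LHCB4.3, a form known from strong light, was lower with 73.9 at 24 h and 359 at 3 h, and LHCB4.1 stood at 4298 at 24 h and 2855 at 3 h. The 4 photosystem subunits PSAN, PSBY, PSAE-1 and PSBW had ratios between 0.36 and 0.94, with a median of 0.79. All fell short of 2-fold, though 2 passed it with scaling to the hybridization controls. In the Calvin cycle SBPASE was at 879 at 24 h and 1533 at 3 h and PRK at 1952 at 24 h and 1569.8 at 3 h, and 0 of 5 members passed 2-fold. CHLM, of chlorophyll synthesis, was at 973 at 24 h and 416 at 3 h. The blue-light regulators AT3G52740 and AT3G44450, inhibitors of cryptochromes, were at 24.6 at 24 h and 160.1 at 3 h and at 35.7 at 24 h and 72.0 at 3 h, the second beside 560.0 on the lit cold-acclimated array. The clock gene GI was at 277 at 24 h and 385 at 3 h.

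Of 69 plastid-encoded transcripts 5 were 2-fold or more lower (7.25%, near the 8.18% of all genes) and 0 higher. The median of the 69 was -0.09. It turned to 0.15 with scaling to the hybridization controls and to 0.05 after loess correction. The lower ones were ndhF (19.0 at 24 h and 83.1 at 3 h), rbcL, the large subunit of Rubisco (464 at 24 h and 1255 at 3 h), psbB (217 at 24 h and 587 at 3 h), petG (148 at 24 h and 370.1 at 3 h) and rps14 (38.1 at 24 h and 77.1 at 3 h). Organelle transcripts mostly lack the long poly(A) tails of nuclear ones, and how evenly the arrays read them was not tested. Of 12 measured mitochondrion-encoded genes 3 were lower and 0 higher, with a median of -0.62, and 10 of them had signals under 100 at 24 h.

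In respiration and low-oxygen genes members again differed. CYTC-2, a cytochrome c, was at 148 at 24 h and 394 at 3 h, while its paralog CYTC-1 stood at 1257 at 24 h and 1233 at 3 h. NDB2, an alternative NADH dehydrogenase, was at 145 at 24 h and 662 at 3 h, and the oxoglutarate dehydrogenase subunit AT3G55410 at 272 at 24 h and 566 at 3 h. The lactate dehydrogenase AT4G17260 was at 104 at 24 h and 349 at 3 h, but AT3G10020, a gene of the low-oxygen response, was at 458 at 24 h and 121 at 3 h. ALDH7B4, a stress-inducible aldehyde dehydrogenase that also acts in lysine breakdown, was at 1879.8 at 24 h and 709.7 at 3 h, and was 1 of 8 aldehyde dehydrogenases, the others lying within 2-fold, though 4 passed it with scaling to the hybridization controls.

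Detoxification and transport families differed by member. Of 37 UDP-glycosyltransferases 5 were higher and 7 lower, with a median of -0.04, and the lower count was 3 with a floor at the 45th percentile. The early ones included UGT76E11 (102 at 24 h and 399 at 3 h) and UGT76E12 (94.1 at 24 h and 233 at 3 h), and the late ones UGT88A1 (899 at 24 h and 283 at 3 h). Of 10 glutathione transferases 2 were higher and 1 lower, with a median of 0.37. GSTU20 was at 173 at 24 h and 1045 at 3 h, and GSTU16 at 179.6 at 24 h and 39.1 at 3 h. Of 13 cytochromes P450, nearly all of the CYP71B group, 3 were higher and 0 lower, with a median of 0.76, and 6 were higher with scaling to the hybridization controls. CYP71B24 was higher with 151 at 24 h and 38.3 at 3 h and CYP71B23 with 356 at 24 h and 121 at 3 h. The glucosinolate carriers parted: GTR1 was at 245 at 24 h and 488 at 3 h, and GTR2 at 435 at 24 h and 207 at 3 h. The nitrate transporter gene AT2G26690 was at 621 at 24 h and 144 at 3 h. In vesicle fusion SEC1B and SEC15B were lower, with 48.2 at 24 h and 191 at 3 h and 157 at 24 h and 342 at 3 h, and 1 of 12 SEC genes, AtSec20, was higher with 153 at 24 h and 72.2 at 3 h but passed 2-fold neither with scaling to a common median nor with a pseudocount.

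The extremes of the comparison, chosen by ratio among genes well above the floor, mix known stress genes with little-studied ones. Of the 15 highest ratios, between 3.66 and 5.42, several have named roles. The peroxidase AT2G37130 was at 1594 at 24 h and 91.5 at 3 h, the lipid-transfer-type protein AT1G62510 at 388 at 24 h and 17.5 at 3 h, and the DNA glycosylase-type protein AT5G44680 at 247 at 24 h and 17.39 at 3 h. AT5G39520 (639 at 24 h and 21.5 at 3 h) and AT5G40450 (731 at 24 h and 44.7 at 3 h) have no role stated here. Their 3 h signals all lay under 100 while their 24 h signals reached 247 to 1594.

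The 15 lowest ratios, between -3.30 and -4.11, included several gene families of defence and signalling. AT4G35985, of a senescence and dehydration-associated family, was at 58.9 at 24 h and 1016 at 3 h. AT2G17660, with the domain of the immune hub RIN4, was at 17.5 at 24 h and 298 at 3 h. AT4G36010, a thaumatin-type defence protein, was at 61.0 at 24 h and 939.6 at 3 h, and AT3G04010, a glucanase-type hydrolase, at 46.7 at 24 h and 601 at 3 h. The heavy-metal-domain protein AT1G51090 was at 60.6 at 24 h and 1010.0 at 3 h, and the oxidoreductase AT3G44190 at 157 at 24 h and 1723 at 3 h. AT5G01380, a trihelix factor, was at 16.9 at 24 h and 167 at 3 h, just above the floor late.

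**Figure D5:**
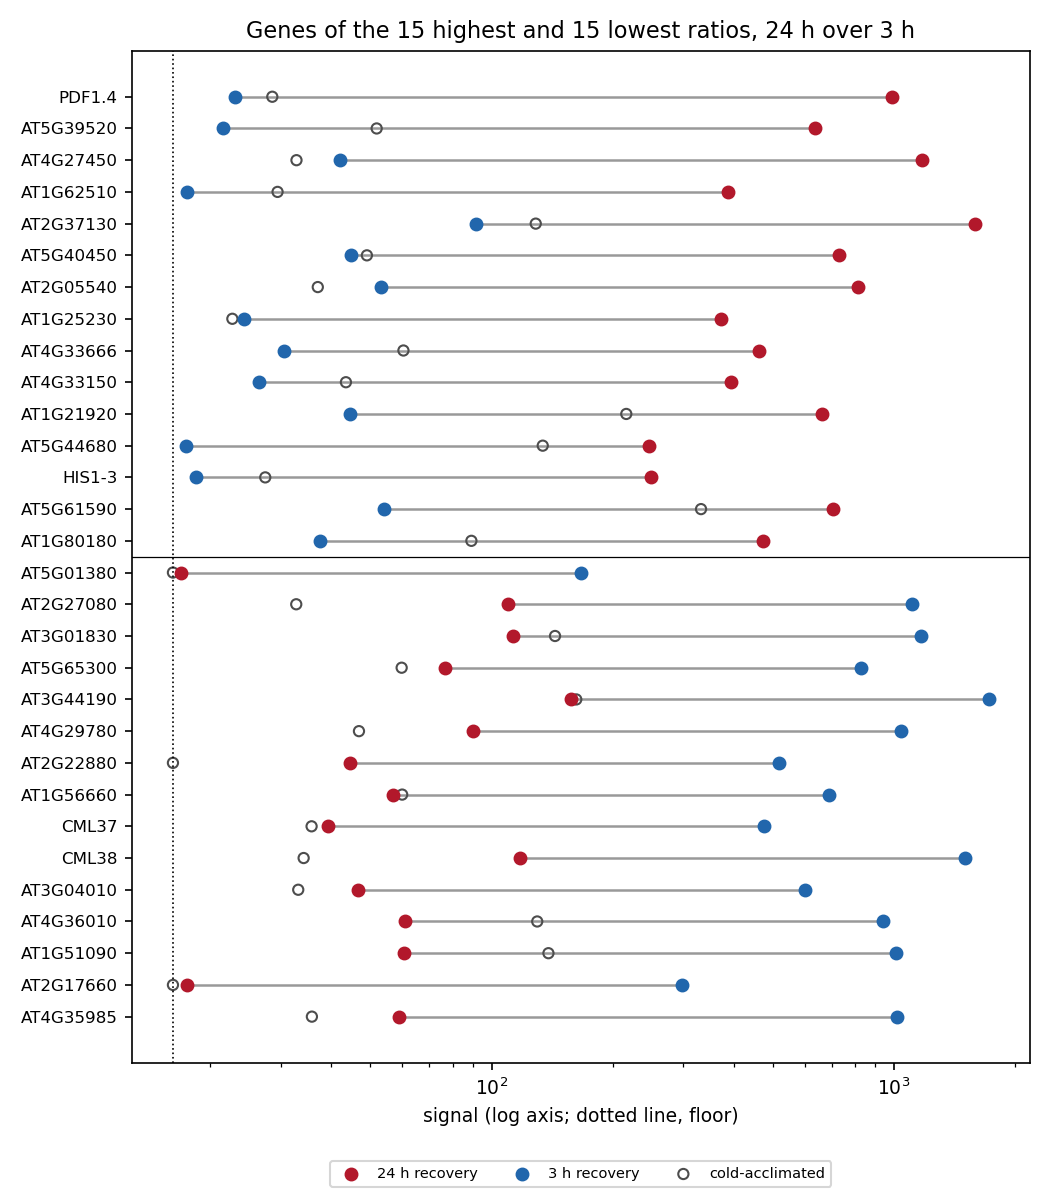
Signals (log axis) of the 15 highest (upper block) and 15 lowest (lower block) ratios of 24 h over 3 h, with 24 h in red, 3 h in blue and the cold-acclimated array as open circles, 1 array each; the dotted line is the floor. In the upper block the blue points lie between 17.39 and 91.5, and in the lower block the red points lie between 16.9 and 157.

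Genes above the floor at one time only are given as bounds. Among probe sets annotated to 1 gene, the brightest at 24 h but not 3 h, after AT2G20670 and EXPA8, were AT5G50335 (267 at 24 h, at least 16.5-fold higher), AT3G19850 (181 at 24 h, at least 11.2-fold) and the transcription factors BZIP61 (140.0 at 24 h, at least 8.67-fold) and GT2 (136 at 24 h, at least 8.40-fold). The brightest of these at 3 h but not 24 h, beside XTH18 and AT1G06000, were AT5G38700 (181 at 3 h, at least 11.2-fold lower late), AT5G47455 (125 at 3 h, at least 7.745-fold) and AT4G28550 (113 at 3 h, at least 6.97-fold). One array was at or below the floor in 253 probe sets of the higher side and in 171 of the lower side.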

How the data were processed

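The deposited values are linear signal intensities of Affymetrix ATH1 probe sets. The authors made them with MAS5, per the submitters' processing notes, whose version and settings are not given in the sources used here. Both arrays were scaled to a 2% trimmed mean of 100, which left the values almost as deposited. Signals under the floor were raised to it, and log2 ratios were taken as 24 h over 3 h. The 64 control probe sets were left out of counts. Intensities are not counts of molecules, so the number of arrays limits the precision.

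In the platform annotation 13513 probe sets have 1 gene, 503 have several and 8730 have none and are unnamed here. Symbols came from the RefSeq table of assembly TAIR10.1, which matched 13436. Roles of genes known by locus code are background knowledge. The probe set with the higher mean over both arrays stood for a gene.

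Members were matched to 119 lists and families by locus or by symbol, of which 95 had a measured member. The lists were chosen with earlier results of these data known. Some families were added later, and 11 false symbol matches were removed after values were seen. The rule for naming genes took the 15 largest and 15 smallest ratios of uniquely annotated, not cross-hybridizing probe sets. These had to exceed the floor at both times and reach 41.7, the median over all 3 arrays, at one or both. The rule also took the 8 brightest each way with the other array at the floor. Per list it took up to 4 members from each end, or all of 6 or fewer. APG8A, AT1G18210, AT2G21430, AT3G04840, AT3G14600, D2HGDH, ETFALPHA, MCCB, ORA47, UGT76E12 and rps14 were chosen after their values were seen. Counts were tested on simulated data. Software was Python 3.11.15, numpy 2.4.6 and pandas 2.3.3, with statsmodels 0.14.6 for loess.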

Additional observations from a re-analysis of the deposited data

Results flagged for a closer look

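The 25S ribosomal RNA control, left out of the counts of probe sets, was 2.91-fold higher at 24 h than at 3 h, at 1292 at 24 h and 444 at 3 h, with 238 on the cold-acclimated array. It stood out as a signal in data outside those counts that lay above its earlier level. The 5S probe set went the other way, at 7.98 at 24 h and 65.1 at 3 h. No other Arabidopsis control probe set above the floor was 2-fold higher at 24 h. A search for outlying samples was not possible, because each group held 1 array.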

How the results depend on the processing

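No paired analysis was possible because each group held 1 array and the titles share a single replicate number. Alternatives were no rescaling, a common median, quantile normalization, loess correction, scaling to reference genes or to the bacterial hybridization controls, other floors, a pseudocount and leaving out cross-hybridizing probe sets; requiring both arrays to exceed the floor was added after seeing the data. Counts past 2-fold ranged between 1363 and 2705 higher and between 1004 and 2258 lower, the last for a floor at the 15th percentile. The 13 lists of at least 3 measured members with a median past 2-fold kept their sign under each alternative, and between 9 and 13 stayed past it. No named gene past 2-fold changed sign where it was measured. These alternatives could hardly have shown such a change. A floor or a pseudocount cannot reverse the order of the 2 signals of a gene. The scalings moved the median log2 ratio of all measured probe sets by 0.22 at most. A floor at the 45th percentile gave a median log2 ratio of 2.60 for dark-induced and starvation genes and 0.61 for cell wall loosening and building. On that floor the median was -0.15 for genes matched to histones by symbol and 0.67 for xyloglucan enzymes. A floor at the 15th percentile gave -1.85 for flavonoid and anthocyanin synthesis, -0.47 for NDR1/HIN1-like proteins and 0.33 for cytochromes P450. A pseudocount gave 2.44 for dark-induced and starvation genes, scaling to reference genes -0.71 for NDR1/HIN1-like proteins, and scaling to the hybridization controls 1.08 for IQD proteins. Requiring both arrays above the floor gave medians of 0.30 for cell wall loosening and building, -0.039 for calmodulin-like proteins named by symbol and 0.71 for xyloglucan enzymes. In the floor alternatives members enter or leave a list with the floor; otherwise the cause was not tested. Dim probe sets near the floor limit what these arrays can show.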

Other observations

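Several families not described above held members past 2-fold. Of 10 measured IQD proteins, calmodulin-binding scaffolds on microtubules, 3 were 2-fold or more higher at 24 h and 2 lower, and 5 were higher with scaling to the hybridization controls. IQD19 was at 52.6 at 24 h and 9.85 at 3 h, below the floor early, and IQD28 at 102.5 at 24 h and 45.01 at 3 h, whereas IQD23 was at 45.15 at 24 h and 175 at 3 h and IQD22 at 81.1 at 24 h and 245 at 3 h. Of 14 beta-glucosidases 4 were higher and 0 lower, BGLU16 with 378 at 24 h and 102.0 at 3 h. Of 21 serine carboxypeptidase-like proteins 2 were higher (9.52%, near the 10.2% of all genes) and 0 lower, scpl48 with 309 at 24 h and 92.9 at 3 h. Of 7 glutamate receptor-like channels 2 were higher, GLR3.6 at 34.9 at 24 h and 13.6 at 3 h and GLR3.5 at 39.0 at 24 h and 19.1 at 3 h, both dim, and 0 passed 2-fold with a pseudocount or a floor at the 45th percentile. Of 12 ubiquitin-specific proteases only UBP23 passed 2-fold, at 47.6 at 24 h and 165 at 3 h. That share of 8.33% was near the 8.18% of all genes that were lower.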
